A study of Mus musculus with 16 samples.

Results

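The comparison asked what differs in triceps, a muscle of the upper forelimb, between mice that carry human SOD1 with the G93A substitution and their non-transgenic (NTg) controls before symptoms begin. It uses 8 of the 16 arrays of the series, 4 of SOD1-G93A triceps and 4 of NTg triceps, chosen by their titles alone. All mice were C57BL/6 females, 7 weeks old, and each array is labelled as a separate biological replicate. The other 8 arrays hold gastrocnemius, a calf muscle, of the same 4 mice per genotype, and serve below as a second muscle. The sources used here do not state the promoter, copy number or line of the transgene. Whole muscle was frozen, so every value mixes fibres with fat, connective tissue, vessel, nerve and blood cells, and fewer cells of a type cannot be told apart from less RNA per cell.

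Mutant SOD1 causes a familial form of amyotrophic lateral sclerosis (ALS), in which motor neurons die and the muscles they drive lose their nerve supply. SOD1 itself is a cytosolic enzyme that removes superoxide and is made in nearly every cell, muscle fibres included. In limb muscle, loss of nerve supply is known to change the genes of the neuromuscular junction, of protein breakdown, of fibre type and of energy use. Those groups were therefore described, together with stress and hormone responses and the markers of the other cells of a muscle sample.

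The values are log2 signals, so that a difference of 1 is a doubling of signal, and all differences are SOD1-G93A minus NTg unless another order is given. Array medians of the series lay between 7.10 and 7.26. Replicates 1 and 2 stood apart from replicates 3 and 4 in both genotypes: 361 of 4637 probe sets (7.79%) differed between these sets in triceps at limma's adjusted p under 0.05, 197 of them (4.25% of those tested) with higher and 164 (3.54%) with lower signal in replicates 3 and 4. The genotype difference was fitted with this set as a block. What the sets stand for is not stated in the labels. Ckm, which encodes the creatine kinase of muscle, was at 13.84, 12.76, 14.51 and 14.50 in SOD1-G93A replicates 1 to 4 and at 12.84, 13.02, 14.42 and 14.21 in NTg replicates 1 to 4. SOD1-G93A replicate 2 and NTg replicates 1 and 2 were thus low, while gastrocnemius lay between 13.97 and 14.71 throughout. SOD1-G93A replicate 1 was also under that range, by less. The low level was not particular to Ckm. The highest value of any probe set was 13.14 in SOD1-G93A replicate 2 and 13.08 and 13.29 in NTg replicates 1 and 2. It was 13.94 in SOD1-G93A replicate 1 and 14.32 to 14.57 in replicates 3 and 4 of both genotypes. Among the 8 triceps arrays NTg replicate 2 had the lowest signal for 27.3% of the probe sets and the highest for 23.5%, against at most 13.0% and 12.7% in any other array. For many values that moved by over 1.5 times when 1 of the 3 arrays of low Ckm was left out, a value without such an array is given. List medians near 0 also moved, and for most of them no such value is given. Without NTg replicate 2, for example, the median of endoplasmic reticulum stress genes went from 0.01 to 0.10. That of fatty acid uptake and oxidation genes went from 0.01 to -0.07. Leaving out all 3 leaves no control in replicates 1 and 2, so that fit gives the difference within replicates 3 and 4 and nothing further.

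At 4 against 4 arrays, no probe set passed the test in triceps. limma called 0 of 4637 probe sets (0%) at an adjusted p under 0.05, and the smallest adjusted p was 0.4. An unadjusted p under 0.05 was found for 129 probe sets (2.78%), 77 with higher signal in SOD1-G93A (1.66%) and 52 with lower signal (1.12%). The median difference over all probe sets tested was 0.02, and 54.4% lay above 0. The groups did not overlap, with every SOD1-G93A array above every NTg array, for 21 probe sets (0.453%), and the reverse held for 23 (0.496%). Within each replicate set taken alone, both SOD1-G93A arrays lay above both controls in the 2 sets for 102 probe sets (2.20%) and below them for 80 (1.73%). The 95% interval of the difference lay within 2-fold either way for 4320 probe sets (93.2%) and within 1.5-fold for 2688 (58.0%). Larger differences than these are outside the intervals of those probe sets. Everything below is a description of values that did not pass this test.

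Egr1, an immediate early transcription factor that cells make within minutes of a stimulus, had the smallest p of all. Its signal was 9.22, 9.24, 8.05 and 8.20 in SOD1-G93A replicates 1 to 4 and 8.65, 7.99, 6.42 and 6.83 in NTg replicates 1 to 4. The groups overlapped, since NTg replicate 1 lay above SOD1-G93A replicates 3 and 4, but within each set both SOD1-G93A arrays were above both NTg arrays. The difference was 1.21 (SE 0.20, 2.31-fold, 95% interval 0.77 to 1.65), with an unadjusted p of 8.62e-05 and an adjusted p of 0.4 by limma. It was 0.91 within replicates 1 and 2 and 1.5 within replicates 3 and 4. Without NTg replicate 1 it was 1.40 (SE 0.18) and passed at limma's adjusted p = 0.0393, the only call that leaving out a triceps array produced. The lowest value over all settings tried was 1.07.

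Fos, an immediate early subunit of the AP-1 transcription factor, also had higher signal in replicates 1 and 2 than in replicates 3 and 4. It was at 9.20, 10.01, 8.26 and 7.52 in SOD1-G93A and at 9.43, 7.82, 6.41 and 6.56 in NTg. NTg replicate 1 lay between the SOD1-G93A arrays of its set, and in replicates 3 and 4 both SOD1-G93A arrays were above both controls. The difference was 1.19 (SE 0.33, limma's adjusted p = 0.974), or 0.91 without NTg replicate 2 and 1.56 without NTg replicate 1. Of 33 listed immediate early genes 21 were in the table and 15 were tested, 10 of them above 0, with a median of 0.19 that was -0.03 without NTg replicate 2, 0.04 without SOD1-G93A replicate 2 and 0.36 without NTg replicate 1. Beside Egr1 and Fos, Gadd45g (-1.06, SE 0.37), a growth arrest gene, and Ccn2 (-0.47, SE 0.21), a matrix growth factor named here after its value was seen, reached an unadjusted p under 0.05 by limma with lower signal. As a mean per array, the list stood at 8.05 to 8.70 in replicates 1 and 2 of both genotypes and at 7.6 to 7.81 in replicates 3 and 4.

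**Figure D1:**
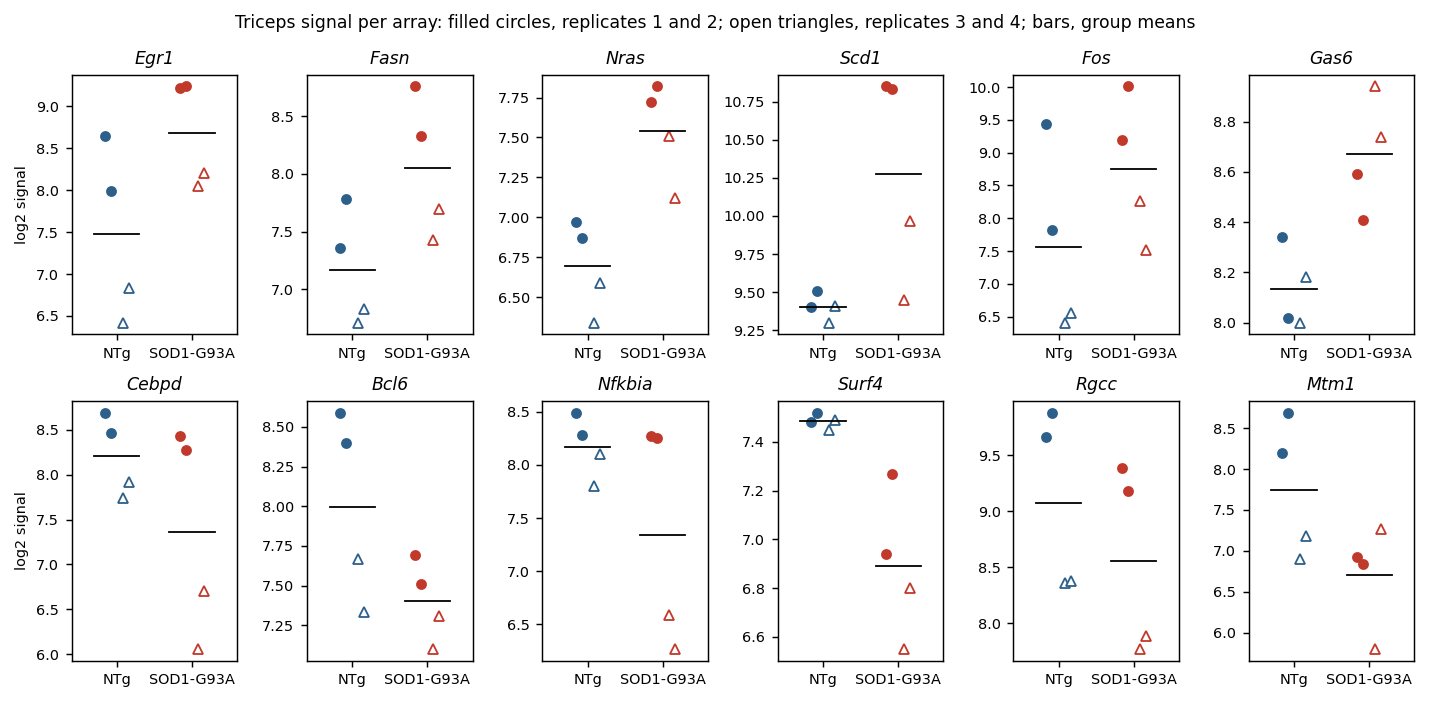
Log2 signal of 12 of the genes of smallest p in each of the 8 triceps arrays, NTg in blue and SOD1-G93A in red, with replicates 1 and 2 as filled circles, replicates 3 and 4 as open triangles and the mean of 4 arrays as a bar. Egr1 and Fos drop from the first set to the second in both genotypes (Egr1 from 8.65 and 7.99 to 6.42 and 6.83 in NTg), and Nras, Gas6 and Surf4 show groups that do not overlap.

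Lipid synthesis gave 2 of the 4 smallest p values among genes with higher signal. This pathway builds fatty acids from acetyl units in fat and liver and, at lower rates, in muscle. Fasn, which encodes fatty acid synthase, was at 8.76, 8.33, 7.43 and 7.70 in SOD1-G93A and at 7.36, 7.78, 6.71 and 6.83 in NTg. In each set both SOD1-G93A arrays lay above both controls, although the groups overlapped across sets. The difference was 0.88 (SE 0.18, 95% interval 0.49 to 1.27, limma's adjusted p = 0.857), with 0.97 in replicates 1 and 2 and 0.79 in replicates 3 and 4, and it stayed between 0.78 and 0.95 under all settings tried.

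Scd1, which puts a double bond into saturated fatty acids, was at 10.85, 10.83, 9.45 and 9.97 in SOD1-G93A and at 9.40, 9.51, 9.30 and 9.41 in NTg. Here 3 of the 4 SOD1-G93A arrays were above every control, and replicate 3 lay among them. The difference was 0.87 (SE 0.21) and was 1.38 within replicates 1 and 2 and 0.36 within replicates 3 and 4. Me1 (0.62, SE 0.27), the malic enzyme that supplies NADPH for fatty acid synthesis and was named here after its value was seen, and Thrsp (0.49, SE 0.18), a lipogenic regulator, also had an unadjusted p under 0.05 by limma. Me1 was at 0.29 without NTg replicate 2 and Thrsp at 0.18 within replicates 3 and 4. In all, 10 of 14 tested members of the list were above 0, with a median of 0.13 that was 0.22 without NTg replicate 1 and 0.21 without SOD1-G93A replicate 2. None had an unadjusted p under 0.05 with lower signal.

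Fat cells make these enzymes too, and their markers were looked at beside them. Scd1 is itself 1 of them and the only one with an unadjusted p under 0.05. Of 19 adipocyte markers 8 were in the table and 7 were tested, 5 of them above 0, with a median of 0.17 that was 0.32 in replicates 1 and 2 and -0.04 in replicates 3 and 4. Adipoq, the fat hormone adiponectin, was at 8.68, 8.93, 8.17 and 8.07 in SOD1-G93A and at 8.06, 7.74, 7.93 and 8.41 in NTg, a difference of 0.43 (SE 0.22) that was 0.27 without NTg replicate 2 and -0.05 within replicates 3 and 4. The markers' summed linear signal ranged from 14473 to 21782 in SOD1-G93A and from 12056 to 19226 in NTg, and their part in the Fasn and Scd1 values was not tested.

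The reference table of RefSeq (GRCm38.p6) holds the start regions of Fasn, Fos and Txnip, and the 150 bases before each start are shown. Their genotype difference had the same sign in both sets, as did that of 51.4% of all probe sets and of other genes described here. The choice was made after the values were seen. Capitals mark CCAAT (the CCAAT box), TGACGT (the core of the cAMP response element), CACGTG (an E-box) and TATAA (the TATA box) on either strand, so that ATTGG stands for CCAAT on the opposite strand.
Fasn, chr11:120824548-120824697, minus strand: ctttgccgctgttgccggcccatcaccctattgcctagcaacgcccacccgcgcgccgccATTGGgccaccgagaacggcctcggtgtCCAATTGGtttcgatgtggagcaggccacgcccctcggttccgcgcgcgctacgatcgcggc
Fos, chr12:85473740-85473889, plus strand: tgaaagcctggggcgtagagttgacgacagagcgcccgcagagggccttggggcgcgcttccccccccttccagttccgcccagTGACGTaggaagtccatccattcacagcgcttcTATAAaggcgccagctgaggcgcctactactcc
Txnip, chr3:96557807-96557956, plus strand: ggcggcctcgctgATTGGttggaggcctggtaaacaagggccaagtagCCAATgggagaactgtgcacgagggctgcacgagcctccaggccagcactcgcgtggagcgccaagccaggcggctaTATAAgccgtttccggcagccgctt

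Fasn has CCAAT at 62 to 58 bases before its start and, on the opposite strand, at 90 to 86 and at 59 to 55, where it overlaps the first. Fos has TGACGT at 66 to 61 and TATAA at 33 to 29. Txnip has CCAAT at 102 to 98, its opposite at 137 to 133, and TATAA at 25 to 21. No CACGTG lies in these windows. Of 32851 such windows in the table, 24.5% hold CCAAT, 5.15% TGACGT, 4.30% CACGTG and 14.2% TATAA, so these matches are a description and nothing more.

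Other genes of smallest p with higher signal encode a signalling protein, a secreted ligand, a channel subunit and a thioredoxin inhibitor. Nras, a small GTPase of growth factor signalling, was at 7.72, 7.82, 7.51 and 7.12 in SOD1-G93A and at 6.97, 6.87, 6.34 and 6.59 in NTg. Every SOD1-G93A array was above every control, and the difference of 0.85 (SE 0.18, limma's adjusted p = 0.857) was the same in each set. A second, dim probe set of Nras was at -0.04. Gas6, a ligand of the TAM receptor kinases, was at 8.59, 8.41, 8.94 and 8.74 against 8.34, 8.02, 8.0 and 8.18, again without overlap, with a difference of 0.53 (SE 0.16).

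Txnip, which binds thioredoxin and restrains glucose uptake, was at 10.51, 10.47, 10.68 and 10.48 in SOD1-G93A and at 10.25, 9.94, 9.79 and 10.28 in NTg. The groups did not overlap, and the difference was 0.47 (SE 0.14), 0.40 in replicates 1 and 2 and 0.54 in replicates 3 and 4. Its other probe set gave 1.68 (SE 0.62), with NTg replicate 2 far down at 4.41. Bbip1, a subunit of the BBSome of cilia, was likewise separate at 0.57 (SE 0.18). Cacna2d1 (1.09, SE 0.32), an auxiliary subunit of the calcium channel that triggers contraction, and Gbf1 (0.71, SE 0.21), a Golgi exchange factor, leaned on NTg replicate 2: without it they were at 0.67 and 0.54, and a second probe set of Gbf1 was at -0.11. limma's adjusted p was 0.974 for Gas6, Txnip, Bbip1, Cacna2d1 and Gbf1 alike.

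Among genes with lower signal, Cebpd and Bcl6 belong to the response of muscle to glucocorticoids, the stress steroids that act through a nuclear receptor and can promote wasting. Cebpd, a transcription factor of that response, was at 8.43, 8.27, 6.06 and 6.70 in SOD1-G93A and at 8.69, 8.46, 7.74 and 7.92 in NTg. Both sets had SOD1-G93A below NTg without overlap, by -0.23 in replicates 1 and 2 and by -1.45 in replicates 3 and 4. The difference over both was -0.84 (SE 0.25, limma's adjusted p = 0.974), and it was -0.59 without SOD1-G93A replicate 3.

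Bcl6, a transcriptional repressor, was at 7.69, 7.51, 7.10 and 7.31 in SOD1-G93A and at 8.59, 8.40, 7.67 and 7.33 in NTg. Its gap lay mostly in replicates 1 and 2, at -0.89 against -0.29 in replicates 3 and 4, the opposite of Cebpd. A dim second probe set of Bcl6 was at 0.92, with NTg replicate 2 at 2.12. Gadd45g, which is on the glucocorticoid list as well as among the immediate early genes, was at 8.85, 8.82, 5.55 and 6.14 in SOD1-G93A and at 8.87, 8.90, 8.35 and 7.49 in NTg. The arrays of the first set were close together (-0.05), and in the second both SOD1-G93A arrays lay below both controls (-2.08). Over both sets the difference was -1.06 (SE 0.37), with -0.69 when NTg replicate 3 was left out.

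Tsc22d3, the glucocorticoid-induced leucine zipper, had a difference of -0.44 (SE 0.15), with further probe sets at -0.01 and -0.08. Glul, glutamine synthetase, named here after its value was seen, was at -0.51 (SE 0.18), with a second probe set at -0.09. Of 25 listed glucocorticoid response genes 21 were in the table and 16 were tested. Lower signal was found for 11 of the 16 and higher for 5, with a median of -0.28 against 0.02 over all probe sets. An unadjusted p under 0.05 by limma was reached by 5 members with lower signal and by 1, Txnip, with higher signal, against 1.12% and 1.66% of all probe sets, and 0 were called. Like all lists here, this one was chosen with earlier results of these data known, so these shares do not test it. The median was -0.15 in replicates 1 and 2 and -0.33 in replicates 3 and 4, and it lay between -0.39 and -0.21 under all settings tried. In gastrocnemius, which shares no array with triceps but comes from the same mice, the median of these genes was -0.22. The list's mean level per array stood at 9.03 to 9.41 in replicates 1 and 2 of both genotypes and at 8.14 to 8.71 in replicates 3 and 4, a gap between the sets that also touches Egr1 (-1.40, limma's adjusted p = 0.00598), Fos (-1.93), Cebpd (-1.36) and Tsc22d3 (-1.16), as replicates 3 and 4 minus 1 and 2.

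**Figure D2:**
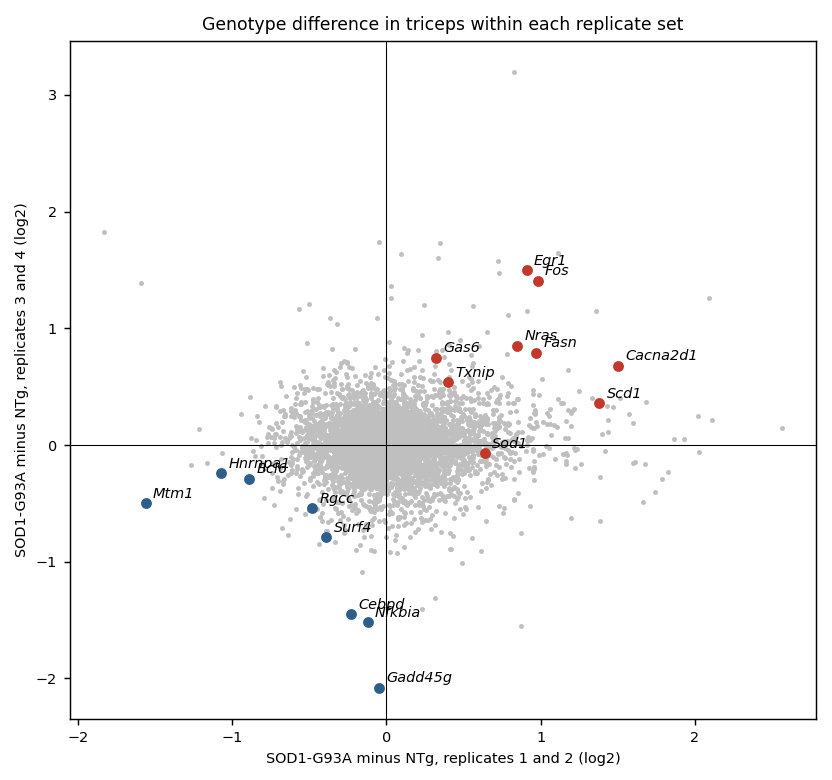
Genotype difference in log2 signal within replicates 1 and 2 (horizontal) and within replicates 3 and 4 (vertical) for the 4637 tested probe sets in grey, with 17 named genes coloured red where their overall difference was above 0 and blue where it was below. Nras and Fasn lie near the diagonal, Cebpd, Nfkbia and Gadd45g have most of their difference in the second set, and 51.4% of all probe sets have the same sign in both sets.

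Of the remaining genes with lower signal and smallest p, Rgcc and Ppp1r3c had like differences in both sets. Rgcc, a regulator of the cell cycle, was at 9.39, 9.18, 7.77 and 7.89 in SOD1-G93A and at 9.66, 9.88, 8.36 and 8.38 in NTg, a difference of -0.51 (SE 0.13) with -0.48 and -0.54 in the sets and -0.36 in its other probe set. Ppp1r3c, which targets a phosphatase to glycogen and promotes glycogen storage, had a difference of -0.53 (SE 0.14), with -0.50 and -0.55 in the sets. Its second probe set was at 0.46 (SE 0.64), with NTg replicate 2 at 5.0. Both genes were more than 1 unit higher in replicates 1 and 2 than in replicates 3 and 4 in each genotype.

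Nfkbia, the inhibitor that holds NF-kappaB in the cytoplasm, was at 8.27, 8.25, 6.59 and 6.27 in SOD1-G93A and at 8.49, 8.28, 7.80 and 8.10 in NTg, a difference of -0.82 (SE 0.26) that came from replicates 3 and 4 (-1.52 against -0.12). Its other probe sets were at -0.39, -0.35 and 0.27. Mtm1, the phosphoinositide phosphatase that is mutated in myotubular myopathy, had a difference of -1.03 (SE 0.33), with -1.56 and -0.50 in the sets and overlap in the second. Surf4, a cargo receptor of the endoplasmic reticulum, was separate at -0.59 (SE 0.18), but its other tested probe sets were at -0.12 and 0.01. Hnrnpa1, an RNA-binding protein mutated in rare ALS, was separate at -0.66 (SE 0.20), with -0.24 in replicates 3 and 4 and -0.13 in another probe set. Park7, a sensor of oxidative stress mutated in familial Parkinson disease, was separate at -0.33 (SE 0.11), with -0.08 in another, and Znhit1, a chromatin remodelling subunit, was at -0.57 (SE 0.17). limma's adjusted p was 0.974 for each of these genes.

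Sod1 was examined as the gene of the transgene's name. It was at 11.06, 10.31, 11.37 and 10.89 in SOD1-G93A and at 9.92, 10.16, 11.34 and 11.05 in NTg, with overlapping groups. The difference was 0.28 (SE 0.21, 95% interval -0.18 to 0.75, limma's adjusted p = 0.974), 0.64 in replicates 1 and 2 and -0.07 in replicates 3 and 4, and 0.17 without NTg replicate 1. Sod1 was at 0.06 without SOD1-G93A replicate 1. Its annotation names the mouse gene rather than the human transgene, so it checks no genotype label. The antioxidant list, which holds enzymes and their regulators, centred on 0 as well, with a median of -0.01 over 27 tested genes, 13 above 0 and 14 below. Txnip was the only one of them with an unadjusted p under 0.05 by limma, and the next, Gpx3 (0.42, SE 0.21), the secreted glutathione peroxidase, and Gstm1 (0.39, SE 0.22), a glutathione transferase, had overlapping groups, with Gstm1 at 0.13 without NTg replicate 2.

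Contractile genes were described by fibre type, since fast fibres are the first to lose their nerve in this disease model. All 15 tested fast fibre genes were above 0, with a median of 0.20 that was -0.01 after quantile normalization, 0.02 without SOD1-G93A replicate 1 and 0.37 without SOD1-G93A replicate 2. None had an unadjusted p under 0.05. Pvalb, the calcium buffer parvalbumin, was at 13.75, 12.64, 14.48 and 14.47 in SOD1-G93A and at 12.76, 13.00, 14.43 and 14.22 in NTg, a pattern over arrays that Ckm and Acta1, skeletal actin, shared. The difference was 0.23 (SE 0.20) for Pvalb, 0.26 (SE 0.19) for Acta1 and 0.28 (SE 0.19) for Ckm, and under quantile normalization -0.01, 0.02 and 0.06. Without SOD1-G93A replicate 2 these were 0.44, 0.43 and 0.48, and without SOD1-G93A replicate 1 they were -0.01, 0.03 and 0.05. The 12 general fibre markers had a median of 0.20 as well, 0.00 after quantile normalization, 0.03 without SOD1-G93A replicate 1 and 0.38 without SOD1-G93A replicate 2.

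The median for slow fibre genes, which mark oxidative fibres of type I, was 0.69 over 14 tested members, 12 of them above 0, but 0.26 over the 8 members that passed a filter on the triceps arrays alone. The other 6 were dim in triceps and entered the test through gastrocnemius. The median of 0.69 was -0.01 in replicates 1 and 2 and 1.24 in replicates 3 and 4. SOD1-G93A replicate 4 carried it: the list's mean level was 6.62, 6.23, 7.71 and 8.98 in SOD1-G93A and 6.71, 5.92, 7.31 and 7.02 in NTg, and without that array the median was 0.35. Myl3, the slow ventricular myosin light chain, was at 7.12, 6.35, 8.22 and 9.36 against 6.72, 5.17, 7.45 and 7.89, a difference of 0.95 (SE 0.36). Atp2a2, the slow calcium pump, was at 6.71, 6.61, 7.86 and 9.37 against 6.89, 6.53, 7.18 and 6.57, a difference of 0.84 (SE 0.40) that was 0.36 without SOD1-G93A replicate 4. Myoz2 (0.68, SE 0.29), a slow fibre protein of the Z-disc, was at 0.47 without it.

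Myh7, the slow myosin heavy chain, named here after its values were seen, was at 3.66, 1.70, 6.54 and 8.81 in SOD1-G93A and at 1.30, 2.40, 6.28 and 2.67 in NTg. Myl2, its light chain, named on the same ground, was at 4.85, 5.68, 7.56 and 10.03 against 5.37, 3.72, 7.89 and 6.75. Both were highest in SOD1-G93A replicate 4, with overlapping groups, and no fold is given because most of these triceps values lie under the filter at 6.75. In gastrocnemius, which entered the filter, Myh7 was at 10.19 to 11.45. limma's adjusted p was 0.974 for each slow fibre gene named, and 2 members (Myl3 and Myoz2) had an unadjusted p under 0.05.

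**Figure D3:**
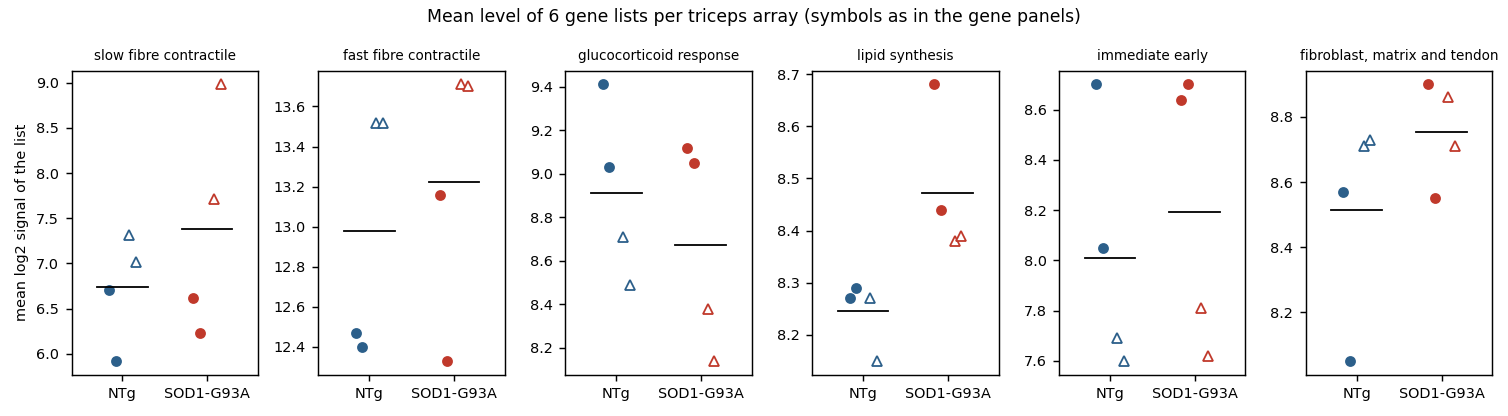
Mean log2 signal of the tested members of 6 gene lists in each triceps array, with NTg in blue, SOD1-G93A in red, replicates 1 and 2 as filled circles, replicates 3 and 4 as open triangles and the mean of 4 arrays as a bar. The slow fibre panel shows SOD1-G93A replicate 4 at 8.98 above the other 7 arrays, the fast fibre panel shows the 3 arrays of low Ckm at 12.33 to 12.47, and the glucocorticoid and immediate early panels show both genotypes higher in replicates 1 and 2.

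The neuromuscular junction and denervation genes, whose rise is the usual sign that a fibre has lost its nerve, could hardly be read. Of 35 listed genes 10 were in the table and 2 were bright enough to test. Prkar1a, a regulatory subunit of protein kinase A, and Lamb2, a laminin of the synaptic basal lamina, were both at 0.00, with an SE of 0.19 and 0.18. Atrophy and autophagy genes, the ubiquitin ligases and lysosomal factors of wasting muscle, had a median of 0.06 over 21 tested members, 14 above 0, and none had an unadjusted p under 0.05. Eif4ebp1 (-0.29, SE 0.15), a brake on translation, Sesn1 (-0.35, SE 0.20), a stress sensor that restrains growth signalling, and Nedd4 (0.42, SE 0.27), a ubiquitin ligase, had the smallest p values, and without NTg replicate 2 Nedd4 was at 0.10 and Sesn1 at -0.23. Proteasome subunits had a median of -0.05 over 33 members, 12 above 0.

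Growth genes gave values in both directions. Igf1, the insulin-like growth factor, was at 8.12, 7.65, 7.97 and 7.91 in SOD1-G93A and at 7.42, 7.04, 7.63 and 7.54 in NTg, without overlap and with a difference of 0.51 (SE 0.17). Its 2 dim probe sets were at 0.56 and 0.36. Igfbp5 (0.47, SE 0.18), which binds it, had its difference in replicates 1 and 2 (0.74 against 0.20), and Cdkn1c (-0.54, SE 0.22), a cell cycle inhibitor, had lower signal. The list of 17 tested growth and myogenesis genes had a median of 0.04. Each of the 3 genes had an unadjusted p under 0.05 and an adjusted p of 0.974 by limma.

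Energy genes were close to equal. Of respiratory complex I 18 of 33 tested genes were above 0 (median 0.02), of complexes III to V 24 of 39 (0.02), of the citric acid cycle 15 of 24 (0.07) and of fatty acid uptake and oxidation 14 of 26 (0.01). The 95% interval lay within 2-fold either way for all 33, 39 and 26 genes of complex I, of complexes III to V and of fatty acid oxidation, and for 23 of the 24 of the citric acid cycle. Atp5md (-0.49, SE 0.22), a small subunit of ATP synthase, was the only respiratory gene with an unadjusted p under 0.05. Glycogen and glycolysis genes had a median of 0.13, 20 of 23 above 0, which was 0.02 within replicates 3 and 4 and 0.22 without SOD1-G93A replicate 2. Pfkfb3 (0.60, SE 0.25), which makes the activator of phosphofructokinase, was at 1.22 in replicates 1 and 2 and at -0.02 in replicates 3 and 4, and at 0.34 without SOD1-G93A replicate 2. Gamt (-0.50, SE 0.19), the last enzyme of creatine synthesis, had no overlap between the groups, at 6.85, 6.80, 6.56 and 6.90 in SOD1-G93A against 6.98, 7.38, 7.48 and 7.26.

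In calcium handling, S100a1, a calcium sensor that tunes the release channel, was at 8.67, 8.70, 8.81 and 8.81 in SOD1-G93A and at 8.86, 9.32, 9.12 and 9.17 in NTg. The groups did not overlap, and the difference was -0.37 (SE 0.14), while a second probe set was at -0.02. Ppp3ca (0.30, SE 0.13), the catalytic subunit of calcineurin, had further probe sets at 0.09 and 0.03. Over 24 tested genes of this list the median was 0.05. Among sarcomere and Z-disc genes, 21 of 27 above 0 with a median of 0.09, Ttn, the giant spring titin, was at 0.37 (SE 0.15), and 0.23 with array weights.

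Stress responses showed no common direction. Heat shock genes had 17 of 39 tested members above 0 (median -0.03), with Dnajc7 (-0.41, SE 0.15), a co-chaperone, as the only one with an unadjusted p under 0.05, and Hspb1 (0.38, SE 0.21), a small heat shock protein, at 0.19 without NTg replicate 2. Endoplasmic reticulum stress genes had 8 of 13 above 0 (median 0.01), with Herpud1 (-0.32, SE 0.18) of smallest p and a second probe set of it at 0.17. Among genes linked to ALS other than Sod1, 9 of 17 were above 0 (median 0.00). Vapb, a membrane-tethering protein, was at 7.61, 7.48, 7.48 and 7.83 in SOD1-G93A and at 7.66, 5.60, 5.98 and 7.04 in NTg, so that 2 control arrays made the difference of 1.03 (SE 0.39). Without NTg replicate 2 it was 0.64. Pfn1 (0.42, SE 0.20, and 0.27 without NTg replicate 2), which binds actin, and Tardbp (-0.30, SE 0.21), the TDP-43 protein, overlapped between the groups.

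Genes of RNA and protein synthesis had medians near that of all probe sets. Cytosolic ribosomal proteins had 20 of 39 above 0 (median 0.01), mitochondrial ribosomal proteins 26 of 59 (-0.03) and splicing factors 30 of 49 (0.05). Of the splicing factors U2af1 (0.66, SE 0.27), U2af2 (0.55, SE 0.24) and Sf3b5 (0.39, SE 0.17), which act where the 3' end of an intron is recognised, had an unadjusted p under 0.05 by limma. U2af1 was at 0.39 without NTg replicate 2. In the cytoskeleton list (median 0.03), Actb, cytoplasmic actin, was at 11.47, 11.37, 11.62 and 11.54 in SOD1-G93A and at 11.27, 9.06, 11.40 and 10.83 in NTg. Its difference of 0.86 (SE 0.38) was 0.34 without NTg replicate 2, and B2m (0.83, SE 0.37), a subunit of class I antigen presentation on the interferon list, was at 0.35 without it. Klc1 (-0.50, SE 0.22), a kinesin light chain, was at -0.10 in replicates 1 and 2 and -0.90 in replicates 3 and 4.

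Circadian genes had 9 of 12 above 0, with a median of 0.13 that was 0.22 in replicates 1 and 2, -0.05 in replicates 3 and 4 and 0.05 without NTg replicate 2. Tsc22d3, described above and also on this list, had the smallest p, with lower signal (-0.44, SE 0.15). Nr1d1, a repressor of the clock, was at 7.34, 7.74, 8.03 and 7.95 in SOD1-G93A and at 6.86, 6.51, 7.69 and 7.89 in NTg, with a difference of 0.53 (SE 0.20) that was 0.20 in replicates 3 and 4. The time of day of dissection is not given in the sources used here.

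Connective tissue markers were above 0 as a list, with most of the difference in replicates 1 and 2. All 32 tested genes of fibroblasts, matrix and tendon were above 0, from 0.00 to 0.59, against 54.4% of all probe sets, and 19 of the 32 had the same sign in both sets. Their median was 0.20, but none was called and 1, Eln (elastin), had an unadjusted p under 0.05. Eln was at 6.87, 6.92, 7.67 and 7.23 in SOD1-G93A and at 6.47, 6.47, 6.84 and 6.76 in NTg, a difference of 0.53 (SE 0.19) with 0.42 and 0.64 in the sets. Serpinf1 (0.48, SE 0.23), an anti-angiogenic factor of fibroblasts, was at 0.21 without NTg replicate 2. The list's mean level was 8.90, 8.55, 8.86 and 8.71 in SOD1-G93A and 8.57, 8.05, 8.71 and 8.73 in NTg, lowest in NTg replicate 2. The median was 0.39 in replicates 1 and 2 and 0.08 in replicates 3 and 4, it was 0.07 without NTg replicate 2, and in gastrocnemius it was -0.12. Summed linear signal ranged from 20100 to 25718 in SOD1-G93A and from 14547 to 24127 in NTg.

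Other cell types were thinly represented. Of 24 Schwann cell and nerve markers 3 were tested (median 0.26, 0.15 without NTg replicate 2 and 0.44 without NTg replicate 1), Pmp22 at 0.21 (SE 0.16) and Mbp at 0.42 (SE 0.25), both myelin genes, and Mbp's other tested probe sets were at 0.49 and -0.34. Of 36 immune markers 5 were tested (median 0.07), with Lyz2, the lysozyme of macrophages, at 0.28 (SE 0.22) and at 0.08 without SOD1-G93A replicate 2. Smooth muscle markers were above 0 for 6 of 6 (median 0.12), with Myl9 at 0.73 (SE 0.34) and 0.44 without NTg replicate 2. Endothelial and pericyte markers were above 0 for 4 of 8 (median 0.02), satellite cell markers for 3 of 3 (median 0.16, and 0.09 without NTg replicate 1), and the erythroid list had 1 tested gene. The part of any of these cells in the differences above was not tested.

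**Figure D4:**
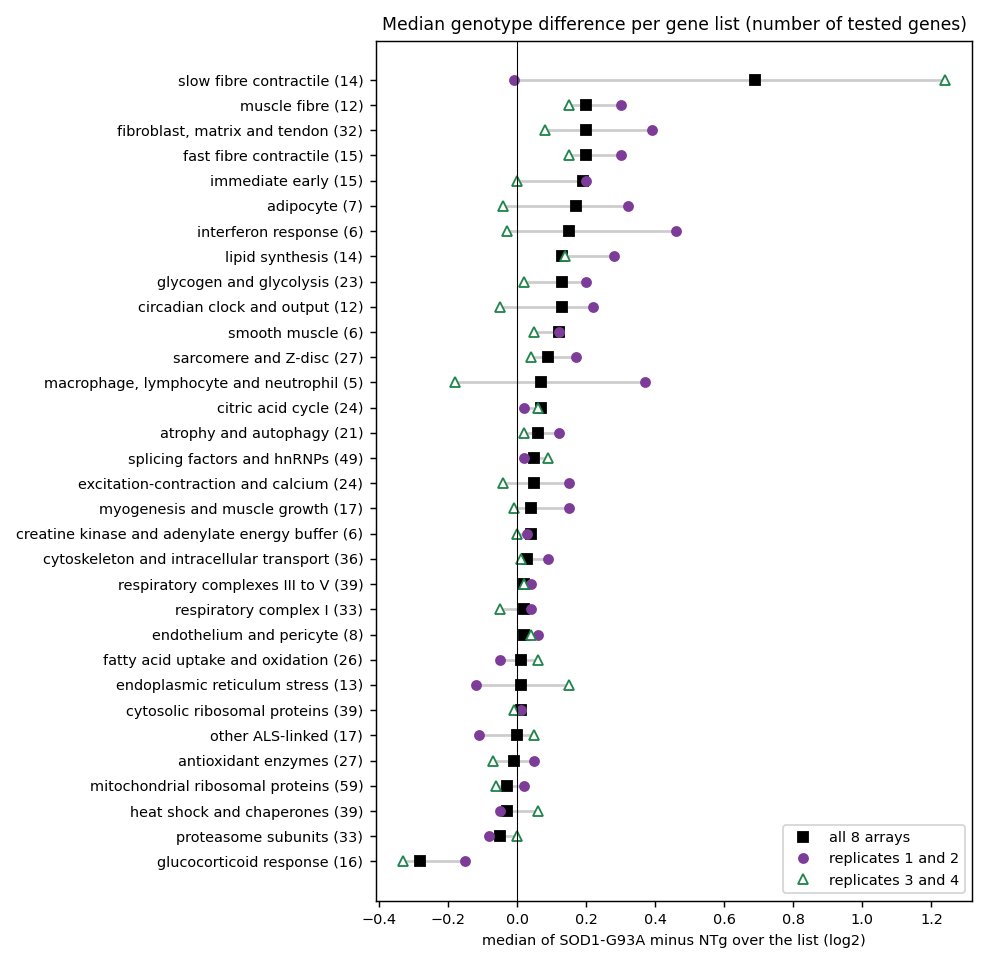
Median genotype difference in log2 signal over the tested genes of each list of 5 or more (their number in brackets), for all 8 arrays as black squares, for replicates 1 and 2 as purple circles and for replicates 3 and 4 as open green triangles. Slow fibre genes lie at 0.69 with sets at -0.01 and 1.24 (0.26 where the filter used the triceps arrays alone), glucocorticoid response genes lie farthest left at -0.28, and most other lists lie near the median of 0.02 over all probe sets.

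The genotype difference in triceps was set against that in gastrocnemius of the same mice, to ask whether the forelimb muscle differs from the hindlimb one. limma, run on the triceps minus gastrocnemius value of each of 8 mice, called 0 of 4637 probe sets (0%), with a smallest adjusted p of 0.96. An unadjusted p under 0.05 was found for 195 (4.21%), 133 with a larger and 62 with a smaller value in triceps. Nras stood first: its difference was 0.85 in triceps and -0.61 in gastrocnemius, where SOD1-G93A was at 7.67, 6.31, 7.28 and 6.64 and NTg at 7.91, 7.93, 7.20 and 7.31. The contrast was 1.46 (SE 0.32, limma's unadjusted p = 0.000605). Myl3, in another probe set than that above, had a contrast of 1.40 (SE 0.34), and 1.04 without the mouse of NTg replicate 2. This probe set was dim in triceps, with means of 6.23 in SOD1-G93A and 5.08 in NTg, both under the filter level. It entered the test through gastrocnemius, where the means were 10.26 and 10.51, so its contrast rests on dim triceps values and the size is uncertain. Further contrasts above 0 were those of Csnk2a1 (1.07, SE 0.27), a kinase subunit whose other tested probe sets gave -0.01 and 0.19, Tcea1 (0.86, SE 0.24), an elongation factor, and Eif2s3x (0.60, SE 0.16), a translation initiation factor whose other tested probe set gave 0.12.

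Contrasts below 0 were led by Golga2 (-0.89, SE 0.21), a Golgi matrix protein, and Mrpl11 (-1.14, SE 0.27), a mitochondrial ribosomal protein whose other tested probe sets gave -0.02 and -0.25. Lars (-0.80, SE 0.25), leucyl-tRNA synthetase, Zcchc17 (-0.66, SE 0.19), a nucleolar protein, and Gpx4 (-0.53, SE 0.17), the peroxidase of membrane lipids whose other probe set gave -0.14, followed, with limma's adjusted p at 0.96 for each gene of this contrast. For the immediate early, lipid synthesis and glucocorticoid response genes of smallest p, the gastrocnemius differences were 0.71 for Egr1, 0.87 for Fos, 1.72 for Fasn, 0.99 for Scd1, -0.84 for Cebpd, -0.85 for Bcl6 and -1.22 for Gadd45g, each of the sign seen in triceps. These are picked members. The immediate early list had a median of -0.06 in gastrocnemius against 0.19 in triceps. Lipid synthesis genes had 0.08 against 0.13, and glucocorticoid response genes -0.22 against -0.28. The other genes of smallest p in triceps were mixed there. Gas6 (0.21), Gbf1 (0.27), Txnip (0.27), Rgcc (-0.17) and Ppp1r3c (-0.27) kept the triceps sign. So did Znhit1 (-0.08), Hnrnpa1 (-0.34), Mtm1 (-0.11) and Nfkbia (-0.20). The sign was opposite for Nras at -0.61, Cacna2d1 at -0.25, Bbip1 at -0.20, Surf4 at 0.18 and Park7 at 0.07. The contrast between muscles was -0.84 (SE 0.35) for Fasn, whose difference was larger in gastrocnemius. Since both muscles come from the same mice, this is no independent repeat over animals.

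**Figure D5:**
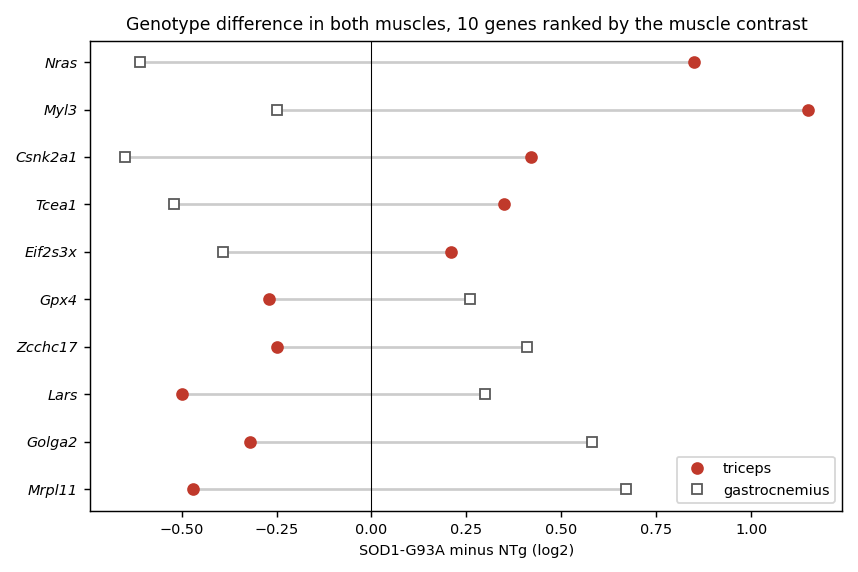
Genotype difference in log2 signal (SOD1-G93A minus NTg) in triceps (red circles) and gastrocnemius (open squares) for the 5 genes per direction of smallest p in the contrast between muscles. Each pair lies on opposite sides of 0, from Nras (0.85 and -0.61) to Mrpl11 (-0.47 and 0.67), and none of the contrasts passed the test. Picking genes by this contrast favours such opposite signs, so the pattern is no result of its own. The Myl3 probe set was dim in triceps (means of 6.23 in SOD1-G93A and 5.08 in NTg) and entered the test through gastrocnemius.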

How the data were processed

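RNA of whole triceps and gastrocnemius was extracted with Trizol and RNeasy columns and hybridised as biotin-labelled cRNA, per the labels' protocols. The authors' deposited table gives 7729 probe sets as log2 signal. MAS5 is the only tool in the submitters' processing notes, with no version, and the base of the logarithm was read from the range of values (-0.773 to 14.811). Trimmed array means differed by 1.06-fold at most, so nothing was rescaled. The trimming leaves out the brightest probe sets, so these means do not show the lower top values of some triceps arrays. Arrays give no depth, and their number limits the precision. The platform annotation gave 1 symbol to 7053 probe sets, several to 330 and none to 346. RefSeq (GRCm38.p6) matched 7048 by Entrez identifier and changed 0 symbols.

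The test took the 4637 probe sets whose mean signal, averaged across the 16 arrays, exceeded log2 6.75, the 40th percentile. limma 3.58.1 (R 4.3.3) fitted genotype and replicate set to the 8 triceps arrays (lmFit, eBayes with an intensity trend), with Benjamini-Hochberg adjustment over all of them and calls at an adjusted p under 0.05. A 95% interval reached 1.33-fold to either side at the median SE of 0.185. The contrast between muscles was fitted to 8 differences per mouse, with pairing by the series' design. Deviations of a mouse's muscles correlated across probe sets at 0.136 to 0.388, and 7 of 8 triceps arrays correlated best with their own number (NTg replicate 1 did so with number 2). The deviations were taken from the group mean and not from the set mean. A shift between the sets that both muscles share thus adds to these matches, and they are weak evidence of the pairing. Each fit was tested on simulated data first. In triceps it recovered 24.1% of planted 1.5-fold changes, 73.6% of 2-fold and 94.5% of 4-fold ones. Between muscles these shares were 21.1%, 53.8% and 93.8%. Changes were planted in 200 probe sets each time, and 5 and 7 others were called falsely. The noise was drawn independently for each probe set, without a shift between sets or deviations of whole arrays. The shares hold for that setting and that number of changes, and may be lower where few probe sets change. P-values measure the spread between these samples.

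Lists, with 1 probe set per gene (the brightest), are described by counts and medians, with no test. Members, lists and settings were chosen with earlier results of these data known. Named are the 10 genes per direction of smallest p, the 5 per direction of the contrast between muscles, Sod1, Ckm, Acta1, Pvalb and, in each list, the 3 members with the lowest p, of which the text gives part. Other probe sets are given mainly where they disagree. Alternatives were other filters, quantile normalization, no set block, no intensity trend, array weights, a replicate block, all 16 arrays and each array left out. The fit without the 3 arrays of low Ckm was added after the data were seen, and with the set block it equals the difference within replicates 3 and 4. Python 3.11.15 was used for tables.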

Additional observations from a re-analysis of the deposited data

Results flagged for a closer look

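In groups of 4 arrays, the gap of the outermost array to its neighbour was compared with Dixon's critical value of 0.829 for 248 groups, and 8 stood out. By chance about 1 in 20 groups would, which is more than were found. Most groups were those of named genes, picked in part for small p in these data, so the flags are a description only. NTg triceps replicate 2 accounts for 5 of the 8. It was the lowest of its group for Myl3 (3.63 in the probe set of the muscle contrast), Got1 (8.91), an enzyme of the malate-aspartate shuttle, Kif5b (6.43), a kinesin motor, and the mean of the smooth muscle list (8.70), and the highest for Psma6 (11.05), a proteasome subunit. Without it the triceps difference was 0.11 for Got1 in place of 0.50, 0.28 for Kif5b in place of 0.67, and -0.14 for Psma6 in place of -0.33. NTg replicate 4 was the highest of its group for Gpx3 (10.90) and the lowest for Ogn (7.23), a matrix proteoglycan, and without it their differences were 0.63 in place of 0.42 and 0.27 in place of 0.34. SOD1-G93A replicate 1 was the lowest of its group for Mrpl11 (7.35).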

How the results depend on the processing

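The count of probe sets called in triceps was 0 under every setting other than leaving out NTg replicate 1, where it was 1 (Egr1), so that with single arrays left out it ranged from 0 to 1, as did the count of list members called. For the contrast between muscles it was 0 throughout. Counts at an unadjusted p under 0.05 moved more. In triceps 77 higher and 52 lower became 36 and 18 with no set block, 152 and 81 with all 16 arrays, 126 and 119 with no filter, 44 and 31 when filtering at the 60th percentile, and 260 and 106 without NTg replicate 1. The higher count was 44 without SOD1-G93A replicate 1, and the lower count was 98 without the 3 arrays of low Ckm. Between muscles, 133 and 62 became 206 and 110 with no filter and 296 and 109 without NTg replicate 1, and the higher count was 84 when filtering at the 60th percentile. Replicate numbers did not pair the genotypes (correlations of 0.034, 0.321, 0.373 and 0.335 for numbers 1 to 4). With the replicate block 0 probe sets were called in triceps, 102 were higher and 71 lower at an unadjusted p under 0.05, and the smallest adjusted p by limma was 0.705. The fit without the 3 arrays of low Ckm equals the difference within replicates 3 and 4 by construction, and there the direction was opposite for Sod1 (-0.07), Adipoq (-0.05) and Pfkfb3 (-0.02). Directions turned after quantile normalization for Pvalb (-0.01). With single arrays left out they turned for Pvalb (-0.01 to 0.44), Prkar1a (-0.18 to 0.16) and Lamb2 (-0.13 to 0.07). The adipocyte median was 0.42 with the mean of all probe sets of a gene. The slow fibre median was 0.26 with the filter on the triceps arrays, which tested 8 of its genes in place of 14. The cause of the other shifts was not tested. The comparison is limited by 4 arrays a group and, for slow fibre genes, by dim signal in triceps.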
